A study of Mus musculus with 12 samples.

Results

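The receptor genes described here encode the subunits of the ion channels that open when glutamate, GABA or glycine binds. They were picked by a rule on the gene symbol that uses no measured value, but the rule was set with earlier results of these data known. They comprised 40 of the 53707 genes of the deposited table: 16 for glutamate receptors, 19 for GABA-A receptors and 5 for glycine receptors. Retinas of wild-type C57BL/6J mice at 28 days of age were freed of the sclera with the pigment epithelium, the cornea and the iris and kept as explants in Neurobasal-A medium with B27 and N2 supplements for 48 hours. The medium of the control group held 5 mM glucose and that of the other group 25 mM glucose, with no other agent or genotype, and the comparison asks how RNA levels differ between them. RNA was sequenced in 12 libraries, 3 biological replicates per glucose concentration with 2 technical replicates each. Batch 1 held the first technical replicate of every sample and batch 2 the second. What separated a biological or a technical replicate, such as another animal, retina or library of the same RNA, is not stated, so the p-values measure the spread between these samples.

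Ionotropic receptors carry fast synaptic transmission. AMPA, kainate and NMDA receptors pass cations and excite a neuron, whereas GABA-A and glycine receptors pass chloride and usually inhibit it. In the retina, photoreceptors and bipolar cells release glutamate, OFF bipolar cells receive it through AMPA and kainate receptors, and amacrine and horizontal cells use GABA or glycine. The rho subunits form the slowly closing GABA receptors known from the axon terminals of bipolar cells. ON bipolar cells instead detect glutamate with a metabotropic receptor.

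The AMPA receptor genes carry a pair of alternative exons that change the channel, and the sequences of 2 genes are shown because the deposited transcript counts separate the forms. In AMPA receptors either the flip or the flop exon is used, and the choice alters how fast the channel desensitizes. The Gria1 exons lie on chromosome 11 of GRCm38, plus strand, the flop exon at chr11:57309769-57309883 and the flip exon at chr11:57310608-57310722. The Gria4 exons lie on chromosome 9, minus strand, the flop exon at chr9:4432773-4432887 and the flip exon at chr9:4427030-4427144. All are coding exons of 115 bases. They are given 5′ to 3′ in the direction of transcription, and capitals mark the bases at which flip and flop of the same gene differ.
Gria1 flip: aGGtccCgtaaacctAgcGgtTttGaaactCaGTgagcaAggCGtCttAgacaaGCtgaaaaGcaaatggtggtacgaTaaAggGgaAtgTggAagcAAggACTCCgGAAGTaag
Gria1 flop: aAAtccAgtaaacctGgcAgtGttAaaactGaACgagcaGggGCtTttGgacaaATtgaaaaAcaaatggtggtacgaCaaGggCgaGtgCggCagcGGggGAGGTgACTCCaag
Gria4 flip: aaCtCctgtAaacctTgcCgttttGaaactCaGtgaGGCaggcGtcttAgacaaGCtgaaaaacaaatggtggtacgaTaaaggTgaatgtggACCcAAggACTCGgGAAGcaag
Gria4 flop: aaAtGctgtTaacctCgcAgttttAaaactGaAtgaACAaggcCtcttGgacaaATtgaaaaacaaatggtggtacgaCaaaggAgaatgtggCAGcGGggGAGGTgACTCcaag
Flip and flop of Gria1 differ at 36 of these bases and those of Gria4 at 31, so that reads over the exon can tell them apart.

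The libraries held between 14815285 and 36692484 estimated counts, and the receptor genes together took between 0.0729% and 0.247% of them. After the technical replicates were summed, 36 of the 40 genes had enough counts to be tested, with totals over all libraries from 86 counts (Gabrq) to 57271 counts (Gria2) among the 33 tested genes shown here. Gabra6, the alpha subunit known from cerebellar granule cells, had 1 count in all 12 libraries. Gabrp had 11, Grin3b 22 and Grin2c 50 counts, and these 4 genes were not tested. Markers of the pigment epithelium summed to at most 5.06 CPM (counts scaled to library size) in any replicate, whereas rod photoreceptor markers summed to between 2925 and 8854 CPM. The second library of 5 mM replicate 1 stood apart from the other 5 of its condition in 7 receptor genes, so results that rest on it are also given without it. Because these were whole explants, fewer cells of a type and less RNA per cell cannot be told apart.

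Levels between genes are compared as TPM, which divide counts by transcript length. A mean level of at least 1 TPM was reached by 28 of the 40 genes. Among the genes shown here the highest was Grik1, a kainate receptor subunit of OFF bipolar cells, at 49.8 ± 41.3 TPM with 5 mM and 158 ± 64.0 TPM with 25 mM glucose (SD, n = 3), a mean over all 6 replicates of 104 TPM. It was followed by the rho 2 subunit gene Gabrr2 (87.6 TPM), the AMPA subunit gene Gria2 (85.5 TPM), Gabrr1 (64.0 TPM), Glrb (50.9 TPM), Gria1 (27.3 TPM) and Gria4 (27.0 TPM). The order was loose, since Grik1 exceeded Gabrr2 in 4 of 6 replicates, Gabrr2 exceeded Gria2 in 3 of 6 and Gria1 exceeded Gria4 in 3 of 6. Gabrr1 exceeded Glrb in 5 of 6. In every pair of neighbours in the order of the 40 genes, the ranges over the 6 replicates overlapped.

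**Figure D1:**
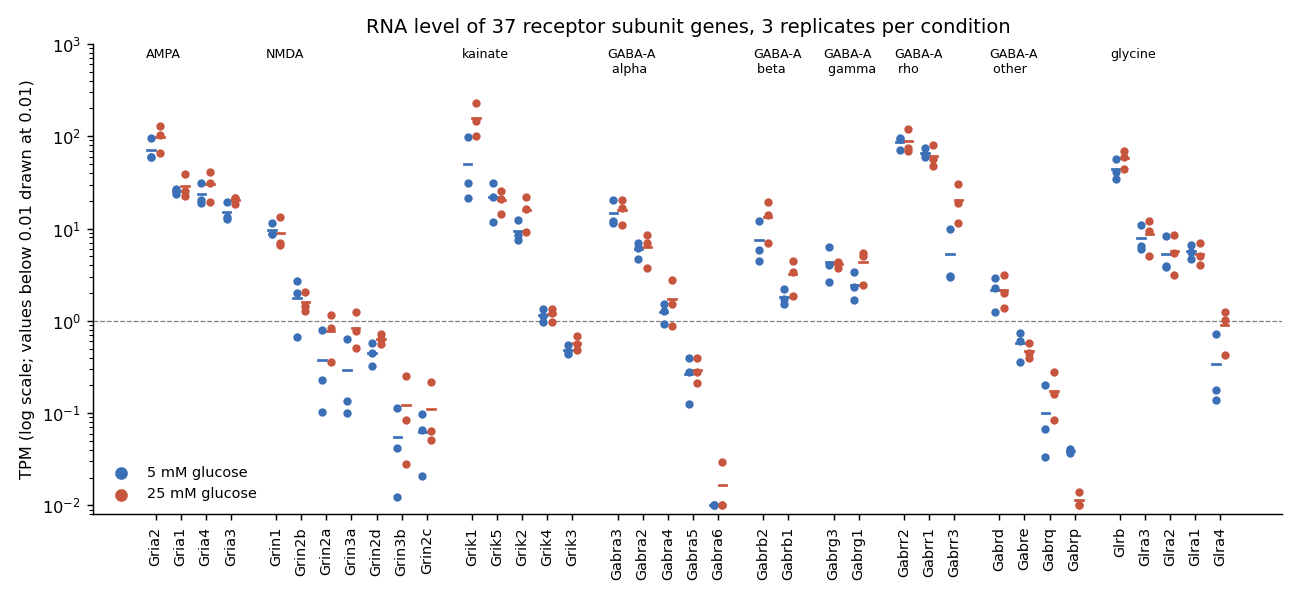
Level of 37 receptor genes in TPM on a log scale, grouped by subunit class and ordered by mean level within it. Points are the 3 replicates at 5 mM (blue) and 25 mM glucose (red), short lines are means, the dashed line marks 1 TPM, and "GABA-A other" holds the delta, epsilon, theta and pi subunit genes. Grik1, Gabrr2 and Gria2 stand highest, and within most genes the points of both conditions overlap.

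Summed over the receptor genes, the level was 741 ± 183 TPM at 5 mM and 1046 ± 312 TPM at 25 mM glucose (SD, n = 3 each). By replicate it was 949, 666 and 607 TPM at 5 mM against 1379, 1000 and 760 TPM at 25 mM. The conditions overlapped, since 5 mM replicate 1 lay above 25 mM replicate 3, and an exact two-sided permutation test gave p = 0.2, where 3 against 3 cannot go below 0.1. GABA-A receptor genes summed to 447 ± 97.3 and 579 ± 163 TPM, glutamate receptor genes to 231 ± 69.4 and 388 ± 129 TPM, and glycine receptor genes to 62.9 ± 16.1 and 78.7 ± 20.1 TPM. Exact permutation p-values for these sums were 0.3, 0.2 and 0.4 over 3 comparisons, so none passed with or without adjustment.

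At an FDR under 0.05, 0 of the 36 tested receptor genes were called between 25 mM and 5 mM glucose, against 417 of 21061 genes tested, a background of 1.98% (quasi-likelihood test of edgeR, with p-values adjusted by Benjamini and Hochberg's method over all genes). At an FDR under 0.01 with a fold change over 2 the count was also 0, and the background was 0% (edgeR). An unadjusted p under 0.05 was reached by 2 of the 36, Gabrr3 and Grik1, where 28.7% of all genes reached it. The same 2 genes were called at an FDR under 0.05 by DESeq2, against a background of 14.3%, and limma-voom called 0, against 1.98%. A replicate block also gave these 2 (background 4.7%), a fit without a filter on low counts gave Gabrr3 (5.63%), correcting the counts for their GC content and length gave Gabrr3, higher, and Glra3, lower (13.1%), and that correction with the block gave Gabrr3, Grik1, Grin3a and Glra3 (15.3%). Without 5 mM replicate 1, 8 of 36 were called where 26.6% of all genes were, and without only its second library 3 of 35, where 8.27% were. Leaving out any of 5 mM replicates 2 and 3 and 25 mM replicates 1 and 2, or the first library of 25 mM replicate 2, gave 0 receptor genes and 0 genes in all, a background of 0% (edgeR). The median log2 fold change of the 36 genes was 0.25, beside -0.01 over all genes. It ran from 0.06 without 25 mM replicate 1 to 0.46 without 5 mM replicate 1, and was 0.11 with the GC content and length correction. It lay above 0 in 22 of them (61.1%), where 49.3% of all genes did. Only in Gabrr3, 1 of the 36 genes, did the replicates separate the conditions upward, as they did in 16% of all genes, and in 0 of the 36 downward, where 15.8% of all genes did. Standard errors of the log2 fold changes ran from 0.18 (Gabrr1) to 0.73 (Grin2a) with a median of 0.33, so that a difference of 2-fold or less was often within a few standard errors.

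**Figure D2:**
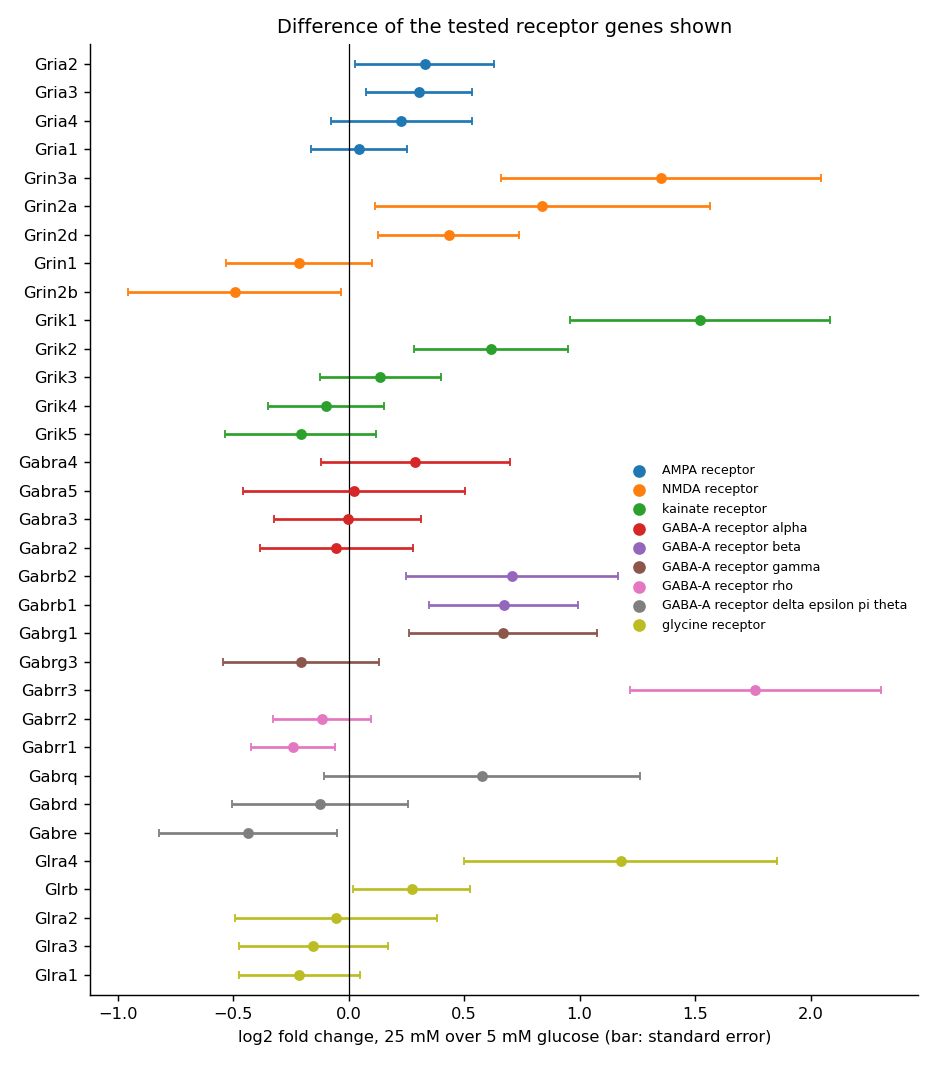
Log2 fold change, 25 mM over 5 mM glucose, of 33 of the 36 tested receptor genes with the standard error as a bar, coloured by subunit class (edgeR, 3 replicates against 3). Gabrr3 and Grik1 stand farthest to the right, at 1.76 and 1.52, and the beta subunit genes Gabrb1 and Gabrb2 lie together at 0.67 and 0.71.

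The kainate receptor genes held the largest difference among the glutamate receptors. Grik1 (ENSMUSG00000022935, chromosome 16, 87895900 to 88290265, minus strand) had 137, 39.6 and 28.9 CPM in the 3 replicates at 5 mM and 264, 199 and 126 CPM at 25 mM glucose. The lowest 25 mM value lay just under 5 mM replicate 1 and well above the other two at 5 mM. Its log2 fold change was 1.52 (standard error 0.56), at an FDR of 0.129 (edgeR). Without 5 mM replicate 1 it was 2.51 with an FDR of 0.0103, and without only the second library of that replicate 2.50 with an FDR of 0.00831. Leaving out any one of the other 5 replicates gave 1.14 to 1.75, with FDRs from 0.109 to 0.326 (edgeR). Grik2, another pore-forming kainate subunit, had 31.1, 19.6 and 17.8 CPM at 5 mM against 45.2, 39.4 and 20.6 CPM at 25 mM, with overlapping groups and a log2 fold change of 0.62 (standard error 0.33, edgeR FDR 0.255), or 0.23 with the GC content and length correction. Grik3, Grik4 and Grik5, which forms channels only with other kainate subunits, had log2 fold changes of 0.14, -0.10 and -0.21, each smaller than its standard error.

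Beside Grik1, the 7 other OFF bipolar markers measured summed to 81.3 to 154 CPM at 5 mM and 89.1 to 169 CPM at 25 mM glucose, with none of them at 0. Their median log2 fold change was 0.69, and 0 of 7 were called, where 1.98% of all genes were (edgeR). In 5 mM replicate 1 they summed to 112 CPM in the first and 209 CPM in the second library, the same library in which Grik1 stood high. This rise was not particular to them. In these libraries ON bipolar markers had 1068 and 1697 CPM, amacrine 566 and 907, and ganglion cell markers 299 and 692. Cone markers had 77.6 and 138 CPM and horizontal cell markers 393 and 421. Rod markers had 2901 and 2895 CPM and Mueller glia markers 3861 and 3782. ON bipolar markers summed to 1241 to 1344 CPM at 5 mM and 1067 to 1342 CPM at 25 mM, with 1 of 10 called higher, where 1.47% of all genes were, and none at 0. The part of these cells in the Grik1 values was not tested.

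The AMPA receptor genes had small log2 fold changes. Gria2, the subunit that makes the channel impermeable to calcium after RNA editing, had 262, 150 and 153 CPM at 5 mM and 282, 273 and 155 CPM at 25 mM glucose. The 2 conditions spanned almost the same range, and its log2 fold change was 0.33 (standard error 0.30, edgeR FDR 0.484), or 0.030 with the GC content and length correction. Gria1, Gria3 and Gria4 had log2 fold changes of 0.05, 0.31 and 0.23. All 4 were thus above 0, and their lowest FDR was 0.395 (edgeR).

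The NMDA receptor genes were the lowest of the glutamate receptors, together 12.6 ± 0.738 TPM at 5 mM and 13.1 ± 5.18 TPM at 25 mM glucose (SD, n = 3). Grin1, the subunit that every NMDA receptor needs, was the highest of them and had 11.9, 10.0 and 14.8 CPM at 5 mM against 15.2, 8.87 and 7.51 CPM at 25 mM. The groups overlapped, and its log2 fold change was -0.22 (standard error 0.32, edgeR FDR 0.672). Grin3a, a subunit that lowers calcium flow through the receptor, had 2.57, 0.385 and 0.511 CPM at 5 mM and 4.15, 3.01 and 1.79 CPM at 25 mM, a log2 fold change of 1.35 (standard error 0.69, edgeR FDR 0.231). Grin2a, a glutamate-binding subunit typical of mature synapses, had 5.35, 1.40 and 0.638 CPM at 5 mM and 6.00, 5.20 and 2.08 CPM at 25 mM, with a log2 fold change of 0.84 (standard error 0.73, edgeR FDR 0.459). In both genes 5 mM replicate 1 lay within the 25 mM range and the other 5 mM replicates lay below it. Without 5 mM replicate 1 the log2 fold changes were 2.72 for Grin3a (edgeR FDR 0.0122) and 2.11 for Grin2a (edgeR FDR 0.0294), and without its second library that of Grin3a was 2.80 (edgeR FDR 0.0161) and that of Grin2a 1.83, not called (edgeR FDR 0.0577). Leaving out any one of the other 5 replicates gave 0.94 to 1.61 for Grin3a (edgeR FDR 0.195 to 0.488) and 0.38 to 1.17 for Grin2a (edgeR FDR 0.324 to 0.777). Grin2d had a log2 fold change of 0.43, but 300.1 counts lay on an antisense gene that overlaps it, near its own 379, so that its count is uncertain. Grin2b had -0.49 in the gene table and 0.48 when its transcript counts were summed (edgeR FDR 0.492 and 0.512), so no direction is given.

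Among the GABA-A receptor genes, the 3 rho subunit genes had unlike log2 fold changes. Gabrr3 (ENSMUSG00000074991, chromosome 16, 59407332 to 59464504, plus strand) had 23.6, 6.65 and 6.74 CPM at 5 mM and 58.0, 43.4 and 24.1 CPM at 25 mM glucose. Every 25 mM replicate lay above every 5 mM replicate, although the gap between the nearest values, 23.6 and 24.1 CPM, was small. Its log2 fold change was 1.76 (standard error 0.54), with an unadjusted p of 0.0114 and an FDR of 0.0926, the lowest of the receptor genes (edgeR). DESeq2 gave 1.73 with an adjusted p of 0.00727, and without 5 mM replicate 1 edgeR gave 2.64 with an FDR of 0.0104. Without that replicate's second library alone the value was 2.53 (edgeR FDR 0.0132), and leaving out any one of the other 5 replicates gave 1.45 to 2.03 (edgeR FDR 0.0712 to 0.262). Gabrr2, the most abundant rho subunit gene, had 58.5, 74.6 and 77.1 CPM at 5 mM and 82.1, 56.6 and 55.1 CPM at 25 mM. Those groups overlapped fully, with a log2 fold change of -0.12 (standard error 0.21, edgeR FDR 0.734). Gabrr1 lies next to Gabrr2 on chromosome 4, the pair spanning 33062999 to 33163588, and had a log2 fold change of -0.24.

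Among the beta subunit genes, whose median of 0.67 was the highest of the GABA-A classes, Gabrb2 had 24.4, 11.2 and 8.70 CPM at 5 mM against 31.7, 28.4 and 12.5 CPM at 25 mM glucose, a log2 fold change of 0.71 (standard error 0.46, edgeR FDR 0.33), and without 5 mM replicate 1 it had 1.27 (edgeR FDR 0.0454). It was not called without only the second library of that replicate, at 1.10 (edgeR FDR 0.0879), or without any one of the other 5 replicates, at 0.43 to 1.02 (edgeR FDR 0.162 to 0.651). Gabrb1 had 12.9, 9.57 and 8.91 CPM against 20.8, 19.4 and 9.74 CPM, a log2 fold change of 0.67 (standard error 0.32, edgeR FDR 0.208), or 0.28 with the GC content and length correction. In both genes, 25 mM replicates 1 and 2 lay above every 5 mM replicate, and 25 mM replicate 3 lay below 5 mM replicate 1.

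Gabrg1, a gamma subunit gene, had 6.27, 2.85 and 4.13 CPM at 5 mM against 8.18, 9.00 and 3.91 CPM at 25 mM, a log2 fold change of 0.67 (standard error 0.41, edgeR FDR 0.302), which the GC content and length correction brought to 0.017. In it 5 mM replicate 1 lay among the 25 mM values. Gabrg3 had -0.21, and the alpha subunit genes Gabra2, Gabra3, Gabra4 and Gabra5 had values from -0.05 to 0.29, all within their standard errors. Gabra5 had 96 counts in all and overlaps an antisense gene with 183, which makes its value uncertain.

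The minor GABA-A subunit genes were low. Gabrd, which replaces gamma in receptors outside synapses, had 1.45, 3.12 and 2.53 CPM at 5 mM and 2.94, 1.53 and 2.01 CPM at 25 mM glucose, with no separation (log2 fold change -0.12, standard error 0.38, edgeR FDR 0.849). Gabrq had 0.506, 0.158 and 0.0851 CPM against 0.556, 0.411 and 0.181 CPM, a log2 fold change of 0.58 with a standard error of 0.68 (edgeR FDR 0.593). Without 5 mM replicate 1 it had 1.63 (edgeR FDR 0.101), without one of the others 0.17 to 0.92, and without only the second library of that replicate its counts were too low for a test. Gabre had a log2 fold change of -0.44. Summed over the libraries, these 3 genes had 609, 86 and 295 counts.

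The glycine receptor genes were led by Glrb, the beta subunit that anchors the receptor to gephyrin. It had 64.3, 43.2 and 37.5 CPM at 5 mM and 63.6, 66.8 and 44.7 CPM at 25 mM glucose, overlapping groups with a log2 fold change of 0.27 (standard error 0.25, edgeR FDR 0.489). Glra4 had 0.686, 0.158 and 0.128 CPM against 0.974, 0.931 and 0.362 CPM, a log2 fold change of 1.18 (standard error 0.68, edgeR FDR 0.278), and without 5 mM replicate 1 it had 2.37 (edgeR FDR 0.0278). It was not called without only the second library of that replicate, at 2.01 (edgeR FDR 0.0544), or without any one of the other 5 replicates, at 0.79 to 1.51 (edgeR FDR 0.192 to 0.556). Its level was 0.34 TPM at 5 mM and 0.90 TPM at 25 mM on average, under 1 TPM in both. Glra1, Glra2 and Glra3, the alpha subunits that bind glycine, had log2 fold changes of -0.22, -0.06 and -0.15.

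Many receptor genes lie in shared clusters, which the choice by symbol did not use. Gabrg1, Gabra2, Gabra4 and Gabrb1 lie within 1398 kb of chromosome 5, and Gabre, Gabra3 and Gabrq within 587 kb of chromosome X. Log2 fold changes were above 0 in 3 of 4 and 1 of 3 of these genes. On chromosome 3, Gria2 and Glrb within 232 kb were both above 0, and on chromosome 4 the neighbours Gabrr1 and Gabrr2 were both below 0. None of these genes passed the test. Of 6 such groups, with gaps of at most 1000 kb, the tested genes shared a direction in 3 and differed in 3.

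Within each batch the receptor genes gave unlike values, and a test of that difference follows them. In batch 1 alone, 9 of 34 tested receptor genes were called higher at 25 mM at an FDR under 0.05, against a background of 7.16%, and 0 were called lower, against 10.1% (edgeR, 3 libraries against 3). They included Grik1, Grik2, Grin2a, Grin3a, Gabrb2, Gabrr3 and Glra4. In batch 2 alone, 0 of 34 were called in either direction, the background also being 0%, with 4 of 34 at an unadjusted p under 0.05 against 11.7% of all genes (edgeR; DESeq2 was not run on single batches). The median of the 34 log2 fold changes was 0.68 when batch 1 was fitted alone, beside 0.01 over all genes. Batch 2 gave -0.29, beside -0.03 over all genes. In batch 1 the value was above 0 in 31 of 34 receptor genes, where 50.7% of all genes were above 0. In batch 2 it was above 0 in 7 of 34, where 47.9% of all genes were. Libraries at 25 mM lay above all those at 5 mM in 20 of 34 receptor genes in batch 1, where 21.2% of all genes did, and below them in 0, where 20.2% did. In batch 2 the counts were 0 above (8.22% of all genes) and 5 below (8.05%): Gabrd, Gabrr1, Gabrr2, Glra1 and Grik4. The combination of a positive value in batch 1 with a negative one in batch 2 occurred in 24 of 34 receptor genes and in 15.6% of all genes tested in both.

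**Figure D3:**
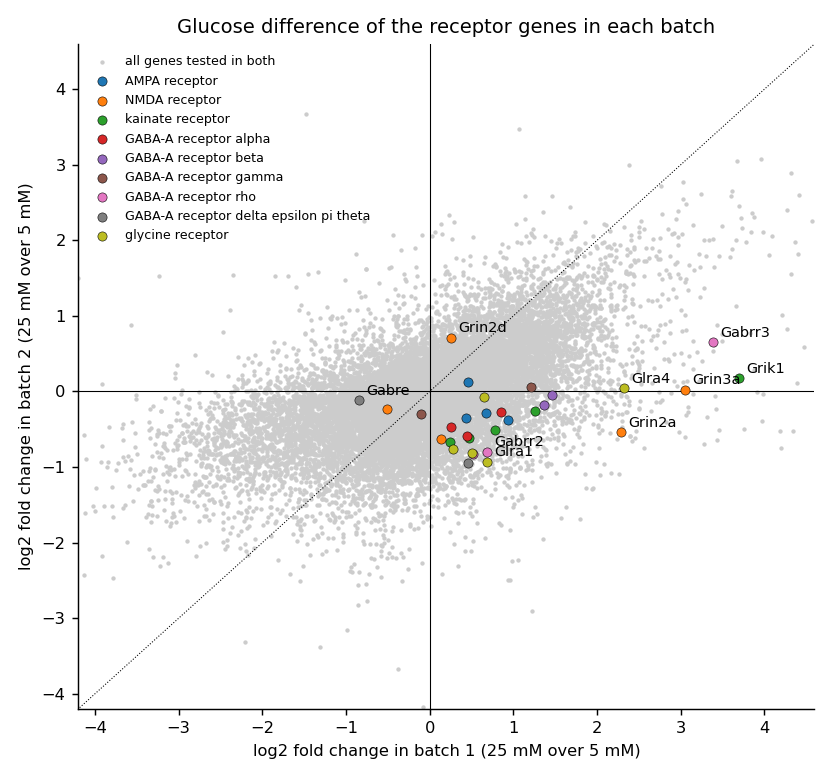
Log2 fold change, 25 mM over 5 mM glucose, in batch 1 (horizontal) and batch 2 (vertical). Grey points are all genes tested in both batches, some of which lie outside the axes, coloured points are 31 receptor genes by class, and the dotted line marks equal values. Most receptor genes lie right of 0 in batch 1 and below 0 in batch 2, and 7 are positive in both, of which Gabrr3 and Grin2d lie highest in batch 2.

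The share of all counts on receptor genes shows the same pattern without a fit. In batch 1 it ran from 0.0779% to 0.106% at 5 mM and from 0.178% to 0.247% at 25 mM glucose, with no overlap. In batch 2 it ran from 0.0994% to 0.243% at 5 mM and from 0.0729% to 0.176% at 25 mM. Thus the 5 mM libraries were higher in batch 2 than in batch 1 for replicates 1 and 2, and the 25 mM libraries were lower in batch 2 in each replicate.

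By gene, the difference between batches had 2 forms. In Grik1 the libraries at 5 mM had 34.9, 6.55 and 18.5 CPM in batch 1 and 275, 82.0 and 38.4 CPM in batch 2. At 25 mM they had 265, 295 and 225 CPM in batch 1 and 273, 146 and 37.3 CPM in batch 2. The conditions were therefore far apart in batch 1, with a log2 fold change of 3.70 (edgeR FDR 0.00832), and overlapped in batch 2, with 0.18. Gabrr3 had 8.13, 2.05 and 5.20 CPM at 5 mM against 50.5, 70.9 and 40.9 CPM at 25 mM in batch 1. In batch 2 it had 44.5, 12.6 and 8.14 CPM against 68.1, 27.8 and 9.00 CPM. Its log2 fold changes were 3.38 (edgeR FDR 0.00831) and 0.66, positive in both but smaller in batch 2. Gabrr2 instead changed its order: 39.4, 45.1 and 54.8 CPM at 5 mM lay below 100.1, 59.4 and 64.8 CPM at 25 mM in batch 1, and 83.7, 112 and 97.2 CPM at 5 mM lay above 66.7, 56.4 and 45.7 CPM at 25 mM in batch 2. Libraries of the conditions were separated in opposite directions in Gabrr2, and its log2 fold changes were 0.68 and -0.79. Gabrr1 and Glra1 were likewise separated upward in batch 1 and downward in batch 2.

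**Figure D4:**
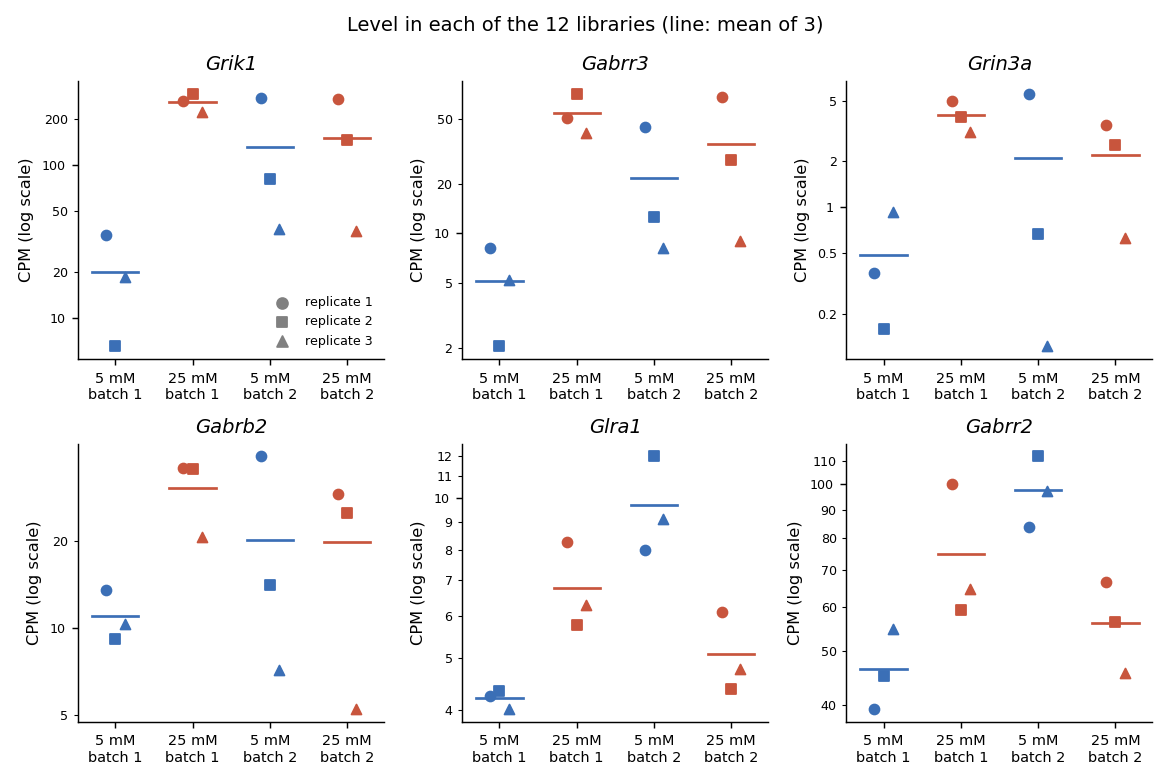
CPM on a log scale of 6 receptor genes in each of the 12 libraries, by glucose concentration and batch, with a symbol for each biological replicate and a line at the mean of 3. In batch 1 all 6 genes are higher at 25 mM with no overlap. In batch 2 Grik1, Gabrr3, Grin3a and Gabrb2 overlap, and Gabrr2 and Glra1 are lower at 25 mM with no overlap.

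A direct test of the difference between batches, fitted over all 12 libraries with the biological replicate as a blocking term, called 0 of 36 receptor genes and 0 of 21061 genes at an FDR under 0.05, a background of 0% (edgeR). At an unadjusted p under 0.05 it gave 14 of 36 receptor genes (38.9%) and 15% of all genes, and in each of the 14 the glucose difference was lower in batch 2, as it was in 7.53% of all genes. They included Grik1 with a difference of -3.75 on the log2 scale (standard error 0.84, unadjusted p 0.00203 in edgeR), Gabrr3, Gabrr2, Gabrr1 and Glra1. Several cell type lists also had unlike medians in the batches. OFF bipolar markers had median log2 fold changes of 1.58 and -0.14 in batches 1 and 2, ON bipolar markers 1.03 and -0.41, ganglion cell markers 0.43 and -0.34 and horizontal cell markers 0.48 and -0.38. Rod photoreceptor markers had 1.16 and 1.15, and over both batches 6 of 10 were called higher, where 1.47% of all genes were (edgeR). Amacrine cell markers had -0.07 and -0.52. Amacrine markers summed to 633 to 715 CPM at 5 mM and 413 to 566 CPM at 25 mM glucose. The sums were 408 to 411 against 342 to 354 CPM for horizontal cell markers and 261 to 468 against 313 to 442 CPM for ganglion cell markers. Cone photoreceptor markers had 0.92 and 0.31, with 1 of 10 called higher beside that 1.47%, and those of Mueller glia -0.45 and -0.01. The lowest medians were those of vascular cells, -2.55 and -0.74, and microglia, -1.45 and -0.86. Vascular markers summed to 1103 to 1963 CPM at 5 mM and 552 to 1000 CPM at 25 mM, and microglia markers to 303 to 443 against 127 to 254 CPM, with no overlap. In 5 mM replicate 1 vascular markers had 1414 CPM in the first and 647 CPM in the second library, where the receptor genes were high. Microglia markers there had 356 and 223 CPM. In 25 mM replicate 3 vascular markers had 728 and 1218 CPM, and microglia markers 180 and 314 CPM. The receptor genes were lower in its second library. Its OFF bipolar markers had 122 and 58.7 CPM, ON bipolar 1151 and 973, amacrine 524 and 309, and ganglion cell 384 and 245. Its rod markers had 6928 and 8252 CPM and its horizontal cell markers 349 and 352. Lists were compared by library in these 2 replicates only. Their second libraries had the highest share of receptor counts at 5 mM and the lowest at 25 mM. The other replicates were not compared this way, so no pattern over all replicates can be read from these values. Of the vascular and microglia markers, 0 of 10 each were called lower, where 0.513% of all genes were (edgeR). No marker of these lists was at 0 in all replicates, and their part in the receptor values was not tested.

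The transcript counts gave a finer view of some receptor genes. Of 179 annotated transcripts of the receptor genes, 107 had enough counts and 0 were called at an FDR under 0.05, as were 0 of 64990 transcripts in all, a background of 0% (edgeR, lowest FDR of a receptor transcript 0.22). At an unadjusted p under 0.05 there were 7 of 107, beside 16.4% of all transcripts. Of these 7, 4 belong to Grik1, and Gabrr3-201, the only annotated transcript of Gabrr3, had 1.68 on the log2 scale (standard error 0.62). The most abundant transcript of Gria2, Gria2-201, had 0.54 (standard error 0.43).

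Flip and flop shares did not differ beyond the replicate spread. In Gria1, the flip form whose exon is printed above made up 63.5%, 56.5% and 43.3% of the TPM of flip and flop transcripts at 5 mM and 57.0%, 69.4% and 60.5% at 25 mM glucose, means of 54.4% ± 10.3 and 62.3% ± 6.38 (SD, n = 3). In Gria4 flip was the minor form, at 35.8% ± 11.8 and 32.4% ± 2.45. In Gria2 it made up 64.9% ± 1.76 and 59.2% ± 6.19. The annotated transcripts of Gria1 and Gria4 have similar lengths for both forms, but those of Gria2 differ, with 4026 bases for flip and 10371 for flop, so its share also depends on how reads outside the exon were assigned. Gria3 shares ran from 44.0% to 100% among replicates and are too variable to read. Exact two-sided permutation p-values for the 4 genes lay between 0.2 and 0.7, with 0.1 the smallest possible, and all were 0.7 after Benjamini-Hochberg adjustment.

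In Grik1 the share of retained-intron transcripts was higher in each 25 mM replicate. Transcripts annotated as retained introns, which keep intron sequence and are not annotated as coding, held 45.9%, 42.1% and 43.4% of Grik1 counts at 5 mM and 59.9%, 63.0% and 54.3% at 25 mM glucose, means of 43.8% ± 1.95 and 59.1% ± 4.39 (SD, n = 3). Every 25 mM replicate lay above every 5 mM replicate. The log2 ratio of retained-intron to coding counts was 0.89 higher at 25 mM, 1.07 in batch 1 and 0.49 in batch 2, with an exact permutation p of 0.1, the smallest that 3 against 3 can give, and 0.5 after adjustment over the 10 receptor genes that could be compared. By transcript, Grik1-204, Grik1-207 and Grik1-208, all retained-intron transcripts, had log2 fold changes of 1.93, 2.04 and 1.15, whereas the most abundant coding ones, Grik1-206 and Grik1-203, had 0.85 and 0.46. The split was not complete, since the less abundant coding transcript Grik1-210 had 3.09 and the retained-intron transcript Grik1-205 had -0.79. Over all 7056 genes with enough counts of both kinds, the ratio was higher at 25 mM by a median of 0.54 on the log2 scale, and 33.5% of them were separated in that direction. Grik1 and Gabra2 were the 2 of 10 receptor genes so separated, beside that 33.5%, and 0 of 10 were separated downward, where 1.02% were; a higher ratio was thus not particular to Grik1. The Gabra2 ratio rested on 208 retained-intron counts in all, and its difference was 2.40 in batch 1 and -0.27 in batch 2. In Gria2, Grik2 and Gria3 the ratio differed by less than 0.1.

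**Figure D5:**
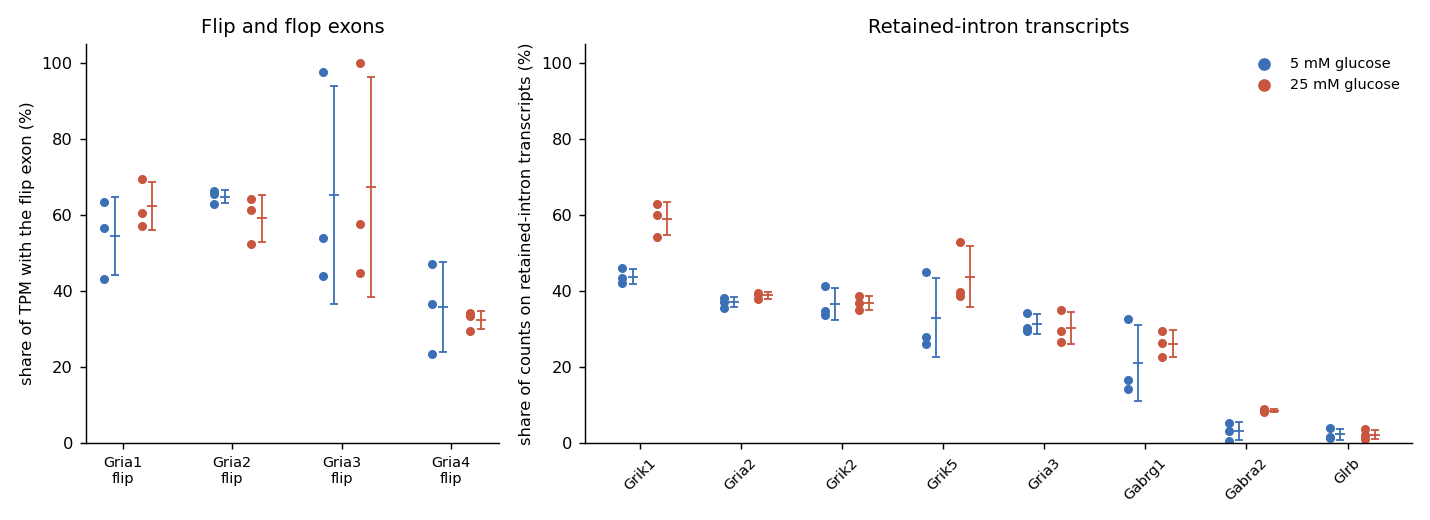
Left, share of the flip form of the AMPA receptor genes among transcripts that hold either form, in percent of TPM. Right, share of the counts on retained-intron transcripts in 8 receptor genes. Points are the 3 replicates at 5 mM (blue) and 25 mM (red) and bars are the mean and SD. Grik1 and Gabra2 are separated between conditions, at 43.8% against 59.1% and 3.10% against 8.54% on retained introns, and the flip shares overlap.

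Genes that work with these receptors were examined as 8 lists: auxiliary subunits, scaffolds, transmitter synthesis and transport, chloride transporters, and the metabotropic and delta receptors. Of 99 genes tested in them, 3 were called lower at 25 mM glucose, against a background of 0.513%, and 0 higher, against 1.47% (edgeR). The 3 were Cacng3, an auxiliary subunit of AMPA receptors; Nptxr, a pentraxin receptor that clusters AMPA receptors; and Gabbr2, a subunit of the metabotropic GABA-B receptor. Cacng3 had 31.4, 40.3 and 35.1 CPM at 5 mM and 15.3, 16.1 and 15.4 CPM at 25 mM, and fell by 1.19 on the log2 scale (standard error 0.18, edgeR FDR 0.0325). Nptxr had 27.4, 47.9 and 41.8 CPM against 13.1, 12.8 and 15.8 CPM and fell by 1.49 (standard error 0.25, edgeR FDR 0.0359). Gabbr2 had 20.6, 27.5 and 23.3 CPM against 10.5, 8.70 and 8.91 CPM and fell by 1.35 (standard error 0.21, edgeR FDR 0.033). The log2 fold changes of the 3 genes were below 0 in both batches: -1.23 and -1.20, -1.83 and -1.11, and -1.34 and -1.38. Leaving out 5 mM replicate 2 or 3, or 25 mM replicate 1 or 2, left no gene of the whole table under an FDR of 0.05.

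The other genes of the lists did not pass the test. In GABA and glycine synthesis, release and uptake, 11 of 13 genes were below 0, with a median log2 fold change of -0.73 beside -0.01 over all genes. Slc6a13, a GABA transporter, had -2.14 (standard error 0.53, edgeR FDR 0.0678), the vesicular transporter gene Slc32a1 had -1.61 (standard error 0.41, edgeR FDR 0.0697) and Gad2, which makes GABA, had -0.96 (standard error 0.21, edgeR FDR 0.0562). This list summed to 546 to 631 CPM at 5 mM and 336 to 421 CPM at 25 mM, with no overlap, and the amacrine markers, given above, were separated in the same direction. Slc17a6, the vesicular glutamate transporter of ganglion cells, had 1.26 with a standard error of 1.03, from 4.35 in batch 1 and -0.52 in batch 2. In the same list of glutamate release and uptake, with a median of 0.01, Slc1a2 had 0.80 and Glud1 -0.71. Among the scaffolds of GABA and glycine receptors the median was -0.11, and the largest values were -1.73 for Inpp5d, -1.03 for Insyn1 and -0.84 for Sqstm1. Inpp5d encodes a phosphatase known from blood cells and microglia and is no scaffold of these receptors, and without it the median of the list was -0.07. Its value had the same sign as the median of the microglia markers, and their part in its value was not tested. Chloride transporters had a median of -0.26, with -1.19 for Slc12a7 and -0.83 for Slc12a4. The delta receptor gene Grid1 had -0.62. Medians of the auxiliary subunits of AMPA and kainate receptors, the glutamate receptor scaffolds and the metabotropic receptors were -0.04, -0.29 and 0.05.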

How the data were processed

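Libraries were made from total RNA with a SMARTer stranded kit for low input (Pico v2) and read in pairs. The authors deposited estimated counts (expected counts) per gene and per transcript, not normalized between libraries. Of gene values above 0, 99.96% are fractional (tolerance 1e-06). For 791 single-transcript genes, the median ratio of transcript to gene value ran from 0.986 to 1.02 between libraries. Whether gene values were rescaled for transcript length is not stated. The counting tool is not given in the sources used here, nor whether strand was used. Annotation was GENCODE M21 (GRCm38), which matched 90.7% of genes, and the sequences shown come from its transcripts.

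Technical replicates were summed and rounded, normalized by TMM, filtered (filterByExpr) and tested with edgeR 4.0.16 (R 4.3.3; quasi-likelihood in its legacy form, no block), 3 against 3. CPM use TMM factors; TPM were computed from transcript counts and lengths. Retained-intron ratios needed at least 60 counts of each kind (pseudocount 0.5). DESeq2 1.42.0, limma 3.58.1 (voom) and other settings were alternatives. Amplified reads without molecular identifiers are not independent molecules, so the errors given are those between replicates. The fit was tested on simulated data of 3 against 3 replicates, with the same dispersion for every gene. At an FDR under 0.05 it recovered 13 of 89 genes changed by 1 on the log2 scale (14.6%). Of those changed by 2 it recovered 99 of 106 (93.4%), with 11 false calls among 20748 genes tested. Most 2-fold changes would thus have been missed. The simulation gave every gene the same dispersion, whereas standard errors of the receptor genes ran up to 0.73. The 93.4% therefore does not carry over to genes with a large standard error. Slc6a13, for example, had a log2 fold change of -2.14 and was not called (edgeR FDR 0.0678). Exact permutation tests used scipy 1.17.1.

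Values by replicate are given for the 10 tested receptor genes with the largest fold changes, the most abundant gene of each class and any called; pathway genes are named when called, otherwise up to 3 with the largest change. A few genes these rules would name are not reported here; counts, medians and sums include them. The members, lists and thresholds were chosen with earlier results of these data known. Batch comparisons, alternative exons, retained introns and the 2 settings that leave out 1 library were added after seeing the data.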

Additional observations from a re-analysis of the deposited data

Results flagged for a closer look

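In 7 of 72 groups of 6 libraries (each tested receptor gene in each condition), the highest library lay far from the other 5 by Dixon's criterion. About 3.6 would be flagged if the values were independent and normally distributed. The 6 libraries are technical replicates in pairs from 2 batches, so that figure is only a rough guide. Each time it was the second library of 5 mM replicate 1, so the 7 are not independent. There Grik1 had 275 CPM, with the next library of that condition at 82.0 CPM, and Gabrr3 had 44.5 CPM, with the next at 12.6 CPM. Gabrb2 had 39.1 CPM beside 14.0, Grin2a 10.3 CPM beside 1.70, Grin3a 5.55 CPM beside 0.925, Glra4 1.20 CPM beside 0.277, and Gabrq 1.07 CPM beside 0.258. The log2 fold changes without this library are given in the report for the genes still tested without it, and Gabrq was not.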

How the results depend on the processing

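The count of receptor genes called at an FDR under 0.05, 0 of 36 in the comparison as reported, was 9 in batch 1 alone, 4 with a correction for GC content and length plus the replicate block, 3 without the second library of 5 mM replicate 1, 2 with DESeq2, with that correction alone or with the block alone, and 1 without a filter on low counts; leaving out biological replicates gave 0 to 8. All genes called, 417, became 3279 in batch 1, 0 in batch 2, 3213 and 2751 with the correction with and without the block, 3215 with DESeq2, 1979 without a filter, 990 with the block, 1731 without the second library of 5 mM replicate 1, 0 without the first library of 25 mM replicate 2, and 0 to 5845 without a replicate. The receptor median of 0.25 was 0.68 in batch 1, -0.29 in batch 2, 0.087 and 0.11 with the correction with and without the block, and 0.058 to 0.46 without a replicate. The transcript count stayed at 0 and the count of genes at 1 TPM at 28 under all their alternatives.

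Same-numbered replicates did not deviate together (correlations -0.01, -0.45 and 0.28, and not each sample correlated best with its own number). With 3 replicates per condition this cannot decide whether they were paired, which is not stated. The replicate block called Gabrr3 and Grik1, at log2 fold changes of 1.94 and 1.80.

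For the 15 genes given by replicate, 21 of 324 values changed sign, mostly of fold changes near 0. In batch 2 alone: Gabrb1 -0.18, Gabrb2 -0.051, Glrb -0.073, Gria2 -0.38, Grik2 -0.26, Grin2a -0.54. In batch 1 alone: Gabrd 0.46, Gabrr2 0.68, Grin1 0.14. With the correction, with and without the block: Gabrd 0.29 and 0.32, Gabrr2 0.074 and 0.10, Glrb -0.024 and -0.025, Grin1 0.19 and 0.17. Without the second library of 5 mM replicate 1: Gabrd 0.005, Gabrr2 0.015. Without a replicate Gabrd ran from -0.40 to 0.11 and Gabrr2 from -0.32 to -0.02. Glra3, named after its values were seen, was called only with the correction (-0.76, FDR 0.0175). Causes were not tested. Depth limits Gabra6, Gabrp, Grin2c and Grin3b.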
